A study of Mus musculus with 4 samples.

Results

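The genes described here encode the CD4 and CD8 coreceptors of T cells and the factors that decide which coreceptor a T cell keeps. They are Cd4, Lag3, Cd8a, Cd8b1, Zbtb7b and Runx3. Each was taken as its annotated span with 1000 bp on each side, and every deposited 100 bp window that overlapped this span was a member. This gave 266 windows of the 1048575 windows in the table. The table (mm10) covers chromosomes 1 to 6 and ends at position 139972600 of chromosome 7. The rule for windows uses positions only, while the genes were chosen with earlier results of these data known.

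DNA methylation was profiled by MeDIP-seq, an assay that enriches sonicated fragments carrying 5-methylcytosine with an antibody and sequences them next to unenriched DNA (input). The cells were NKT (natural killer T) cells, which see lipids on CD1d, taken fresh from thymus by sorting with CD1 tetramers. The groups were WT and PLZFon mice, both given as strain C57BL/6, with 1 MeDIP and 1 input library for each genotype. PLZF is a zinc finger factor on which NKT cells depend as they develop. Neither the PLZFon allele, nor the age of the mice, nor how many were pooled is described in the labels. They name the antibody for the WT input and none for the PLZFon MeDIP library, against the titles, which were followed here. MeDIP reads do not measure expression, so the sort could not be checked against marker levels. In sorted cells, fewer cells with a methylated allele and less methylation per cell cannot be told apart.

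With 1 library per group there was no test of genotype. A ratio below is the PLZFon share of library reads over the WT share, and each 95% interval is an exact (Clopper-Pearson) binomial interval that covers counting error only. The MeDIP libraries held 10633609 reads for PLZFon and 15141449 for WT, and the inputs 50374582 and 60683037. Over all listed windows the MeDIP ratio was 0.964 and the input ratio 1.01. MeDIP over input was 4.44 for WT and 4.22 for PLZFon. Every listed window has 10 or more MeDIP reads, the genotypes added together, and a CpG factor (the authors' score of CpG content) of 1 or more. An unlisted window is therefore not a window without reads.

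CD4 binds MHC class II and CD8, a dimer of the Cd8a and Cd8b1 products, binds MHC class I, and both bring the kinase Lck to the T cell receptor. Zbtb7b encodes ThPOK, the factor of the CD4 lineage, and Runx3 encodes the factor of the CD8 lineage that silences Cd4 and Zbtb7b. Lag3, next to Cd4, encodes an inhibitory receptor related to CD4 that also binds MHC class II. Mouse thymic NKT cells are mostly CD4+ or lack both coreceptors, and they depend on ThPOK. DNA methylation of the Cd4 and Cd8 loci changes as thymocytes commit to a lineage.

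The RefSeq table used here (GRCm38.p6) gave start sites for 3 of the 6 genes: 1 for Cd8a, 2 for Runx3 and 2 for Zbtb7b. The 250 bases before 4 of these starts are printed because their CpG content sets how much a pull-down of methylated CpG can show there. Capitals mark each CG dinucleotide, whose letters read the same on both strands, and each sequence runs 5′ to 3′ on the gene's strand.
Runx3 upstream start (chr4:135120395-135120644, plus strand): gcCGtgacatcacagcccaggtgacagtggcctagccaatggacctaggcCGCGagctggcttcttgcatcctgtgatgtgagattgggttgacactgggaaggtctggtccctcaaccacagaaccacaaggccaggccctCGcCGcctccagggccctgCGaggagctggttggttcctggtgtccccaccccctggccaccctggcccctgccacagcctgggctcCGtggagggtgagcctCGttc
Runx3 downstream start (chr4:135152295-135152544, plus strand): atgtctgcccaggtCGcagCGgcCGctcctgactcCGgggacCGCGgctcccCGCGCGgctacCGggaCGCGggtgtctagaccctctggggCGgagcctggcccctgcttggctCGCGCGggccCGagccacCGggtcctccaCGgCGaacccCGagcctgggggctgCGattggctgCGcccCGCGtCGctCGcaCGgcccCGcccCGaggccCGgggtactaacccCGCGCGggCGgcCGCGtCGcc
Zbtb7b upstream start (chr3:89393379-89393628, minus strand): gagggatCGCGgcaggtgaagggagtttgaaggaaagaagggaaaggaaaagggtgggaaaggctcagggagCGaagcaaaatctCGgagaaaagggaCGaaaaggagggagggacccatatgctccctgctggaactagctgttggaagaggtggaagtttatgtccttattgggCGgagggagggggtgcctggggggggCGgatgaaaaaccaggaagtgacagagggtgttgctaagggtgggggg
Cd8a start (chr6:71373177-71373426, plus strand): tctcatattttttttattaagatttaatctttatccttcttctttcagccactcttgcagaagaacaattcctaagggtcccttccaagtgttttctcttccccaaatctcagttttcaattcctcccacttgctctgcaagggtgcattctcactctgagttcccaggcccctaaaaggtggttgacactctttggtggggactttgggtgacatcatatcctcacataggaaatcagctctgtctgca

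The Runx3 downstream start had 38 CG in these 250 bases, a number that 1.85% of the 15055 annotated starts in the range of the table reached. The Runx3 upstream start had 8, the Zbtb7b upstream start 7, the other Zbtb7b start 5 and the Cd8a start 0. The letters TGTGGT, a core that Runx proteins bind, occurred on either strand 2 times before the Runx3 upstream start and 1 time before the Zbtb7b downstream start. They did not occur in the other 3 stretches, and 13.6% of all starts had them in the same length.

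None of the windows that overlap these 5 stretches was listed. Every listed window has a CpG factor of 1 or more, and the Cd8a stretch has 0 CG. The absence there was thus largely set by CpG content and is not read as a result. Over all starts, 0.947% of those with 20 or more CG had a listed window in this length, 32.5% of those with 5 to 9 and 16.1% of those with 0 to 4. Around Zbtb7b the absence of listed windows was long. No window was listed from 89381901 to 89394673 on chromosome 3, 12.8 kb that hold both Zbtb7b starts, most of the gene and part of the overlapping RNA gene Gm15417. The nearest listed window lay 4523 bp from the upstream start and 5771 bp from the downstream start. Among the 2615 starts with 5 to 9 CG, 5.74% and 4.4% were as far or farther from a listed window. The Runx3 upstream start also had no listed window within 1000 bp, like 38% of the starts with 5 to 9 CG, and the nearest one was 1245 bp away, before the gene.

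The Runx3 downstream start was bordered by listed windows. Of the 21 windows within 1000 bp of it, 6 were listed (28.6%), all before the start, and the nearest ended 445 bp from it (chr4:135152001-135152100). Over all 2640 starts with 20 or more CG, 4.85% of such windows were listed, and 3.64% of these starts had at least 6. The strongest window of this border (chr4:135151801-135151900) held 25 PLZFon and 36 WT MeDIP reads, with 23 PLZFon and 17 WT input reads, a ratio of 0.989 (0.569 to 1.69). The input ratio of this window was 1.63 (0.833 to 3.25). The MeDIP ratio was thus near 1, but equal pull-down relative to the input was not shown. At Cd8a, 8 of the 21 windows around the start were listed, all downstream of it, the first 274 bp away. Over all starts with 0 to 4 CG, 10.8% of such windows were listed, and 7.92% of these starts had at least 8.

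The files used here give no start for Cd4, Lag3 and Cd8b1, so both annotated ends were examined. No window was listed within 1000 bp of the upper end of Cd4 (position 124888247) or of either end of Cd8b1. At the lower end of Cd4 3 of 21 windows were listed. At Lag3 5 of 21 were listed at the lower and 3 of 21 at the upper end. Over all annotated starts, 53.1% had no listed window within 1000 bp, and 10.3% of such windows were listed. Such an absence is thus common among starts. It ran from 38% of starts with 5 to 9 CG to 68.1% of those with 20 or more. Which of the ends of Cd4 and Cd8b1 are starts is not given, and no share was computed for gene ends.

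**Figure D1:**
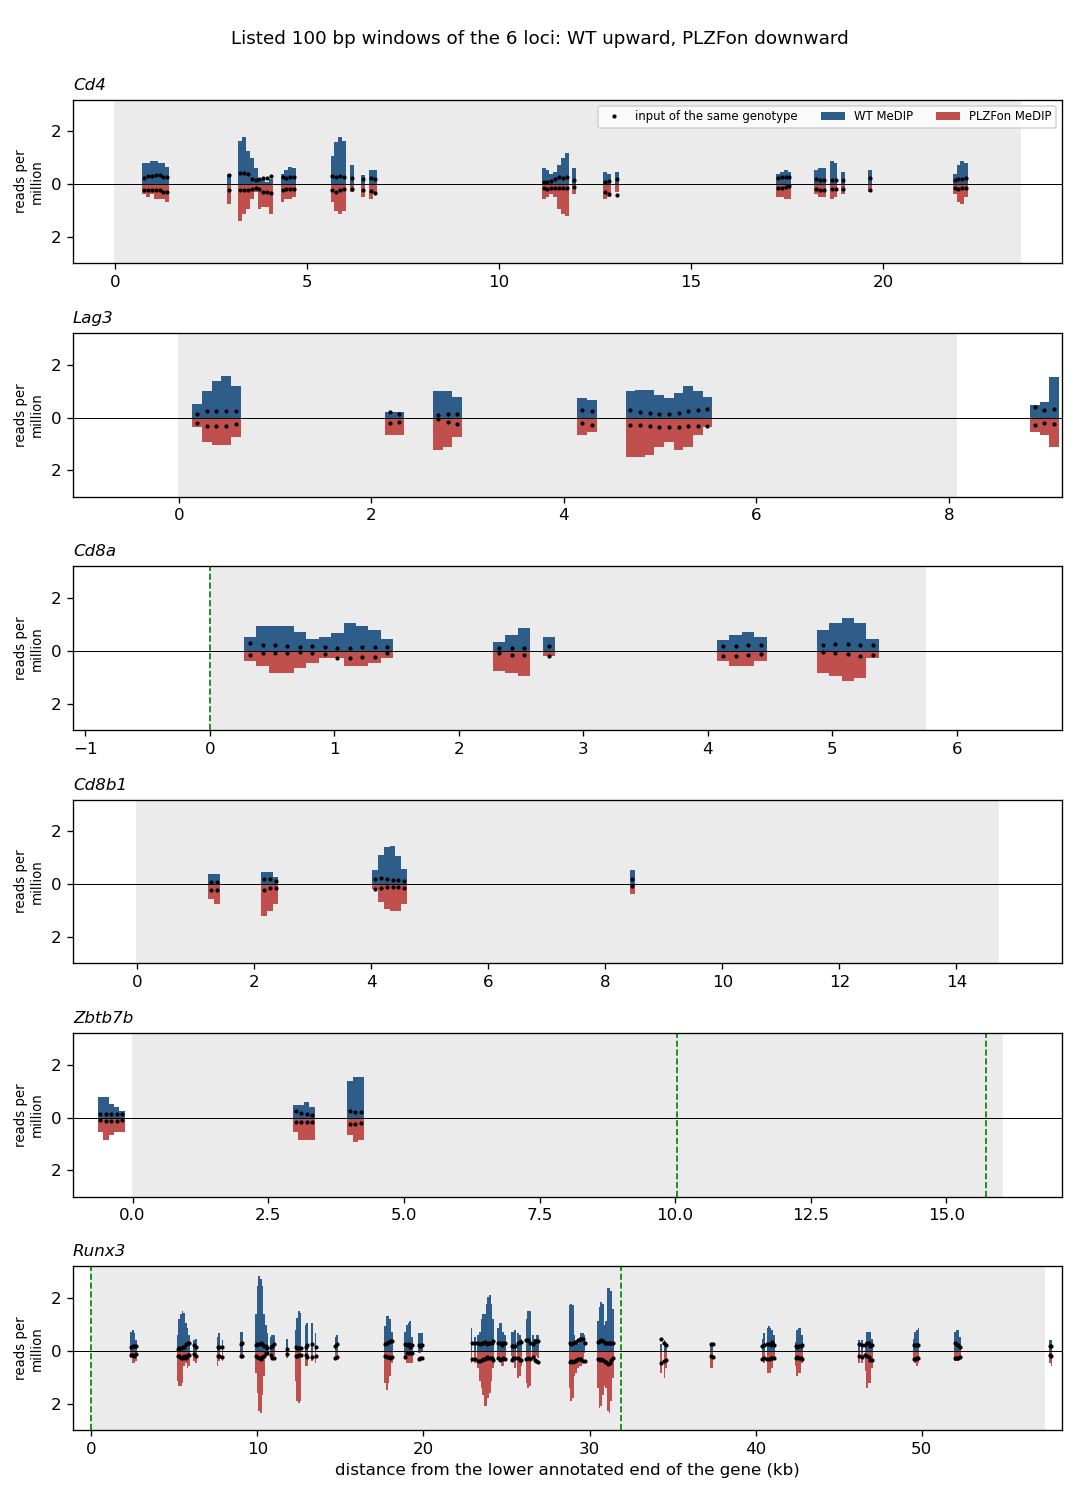
Each panel shows 1 gene with 1000 bp on each side (grey: annotated gene, dashed green: annotated start where one was given). The x axis is the distance from the lower annotated end in kb and the y axis is RPM (reads scaled to the library total) per 100 bp window, WT MeDIP upward in blue and PLZFon MeDIP downward in red, with the input of the same genotype as black dots. Gaps are windows that are not listed. The listed windows of Zbtb7b all lie below its 2 starts, and the highest bars are those of Runx3, up to 43 reads in WT and 25 in PLZFon.

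The share of windows that was listed differed among the genes. It was highest in Cd8a with 25 of 78 windows (32.1%), then 24 of 102 in Lag3 (23.5%), 138 of 594 in Runx3 (23.2%) and 55 of 257 in Cd4 (21.4%). Cd8b1 had 12 of 168 (7.14%) and Zbtb7b 12 of 181 (6.63%). The median over the 7668 protein-coding loci that reached 20 reads was 15%. Cd8a stood at percentile 93.4 of these loci, and Cd8b1 and Zbtb7b stood at percentiles 18 and 15.9. The CD8 chains, which form 1 protein, thus lay on opposite sides of the median.

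In Cd4, pull-down relative to the input was low for both genotypes. Over Cd4 (chr6:124864693-124888247) there were 91.5 PLZFon and 148 WT MeDIP reads, with 144 PLZFon and 195 WT input reads (window sums divided by the 4 windows a read is counted in). MeDIP was 3.04 times the input in WT (2.44 to 3.78) and 3 times in PLZFon (2.29 to 3.93). Listed windows of the same CpG factors gave 4.3 and 4.1 over the whole table. In both genotypes the whole interval of Cd4 lay below these values. Cd4 stood at percentile 11.8 of the loci in WT and 16.5 in PLZFon. In its 12 windows with at least 20 MeDIP reads, pull-down was 4.36 in WT and 5.01 in PLZFon, where windows of the same CpG factors and minimum gave 6.24 and 5.8. With that minimum the intervals of Cd4 (2.96 to 6.43 and 2.95 to 8.55) included these values.

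Lag3 (chr6:124904359-124912434) had 58.5 PLZFon and 81 WT MeDIP reads with 81.8 PLZFon and 81.2 WT input reads. MeDIP was 4 times the input in WT (2.9 to 5.5) and 3.39 times in PLZFon (2.38 to 4.8). These intervals include the values of windows with the same CpG factors (4.15 and 3.98). Between the genes, from 124889248 to 124903358, only 10 of 142 windows were listed, and the MeDIP ratio there was 1.07 (0.533 to 2.11).

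Cd8a (chr6:71373427-71379171) had 40 PLZFon and 68.5 WT MeDIP reads with 45.5 PLZFon and 68 WT input reads. MeDIP was 4.04 times the input in WT (2.84 to 5.73) and 4.16 times in PLZFon (2.65 to 6.51). Cd8b1 (chr6:71322788-71337492) had 24.8 PLZFon and 32.8 WT MeDIP reads with 24 PLZFon and 30.2 WT input reads, or 4.34 times the input in WT (2.57 to 7.36) and 4.89 times in PLZFon (2.67 to 8.95). The intervals of the CD8 genes overlapped in each genotype. In the 33.9 kb between them, a stretch in which enhancers of the Cd8 locus are known, 18 of 341 windows were listed (5.28%). Those windows stood at 6.26 times the input in WT (4.1 to 9.66) and 6.01 times in PLZFon (3.73 to 9.75), with a MeDIP ratio of 1.01 (0.667 to 1.53).

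Zbtb7b (chr3:89377644-89393673) had 23.2 PLZFon and 34.5 WT MeDIP reads with 23.8 PLZFon and 29.8 WT input reads. MeDIP was 4.65 times the input in WT (2.76 to 7.86) and 4.64 times in PLZFon (2.5 to 8.58). These few reads come from 3 blocks of adjacent windows, of which 1 lies in the flank that also belongs to the neighbouring gene Dcst2.

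Runx3 (chr4:135120645-135177990), the longest of the genes, had the most reads, with 304 PLZFon and 493 WT MeDIP reads and 458 PLZFon and 526 WT input reads. MeDIP was 3.76 times the input in WT (3.32 to 4.26) and 3.14 times in PLZFon (2.71 to 3.64). Both intervals lay below the values of windows with the same CpG factors, 4.52 and 4.29. In the 64 windows with at least 20 MeDIP reads the values were 5.4 (4.57 to 6.4) and 4.75 (3.92 to 5.75), against 6.44 and 6.02. Runx3 stood at percentile 32.1 of the loci in WT and 20.3 in PLZFon. Within the gene, WT pull-down was 4.12 times the input before the downstream start (3.59 to 4.74) and 2.54 times from it on (1.88 to 3.41), and these intervals do not overlap. In PLZFon the values were 3.38 (2.86 to 4) and 2.43 (1.75 to 3.35). This split was chosen after the values were seen.

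**Figure D2:**
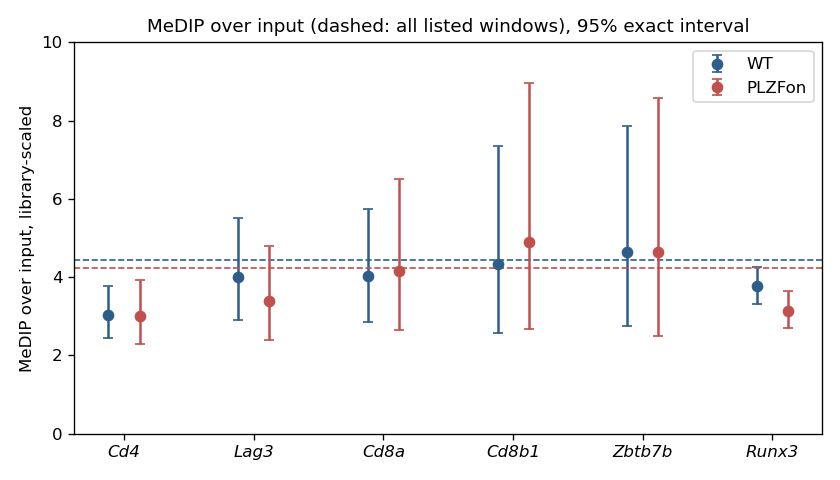
The y axis is MeDIP over input, scaled to library totals, of each locus on the x axis, with points for WT (blue) and PLZFon (red), bars for the 95% exact interval and dashed lines for the whole table (WT 4.44, PLZFon 4.22). The bars of Cd4 and Runx3 lie below the dashed line of their genotype, and those of the other 4 loci cross it.

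The comparison of PLZFon with WT showed no locus apart from equality. From low to high the MeDIP ratios were 0.831 in Cd8a (0.548 to 1.25), 0.878 in Runx3 (0.759 to 1.02), 0.882 in Cd4 (0.672 to 1.15), 0.96 in Zbtb7b (0.542 to 1.67), 1.03 in Lag3 (0.722 to 1.46) and 1.08 in Cd8b1 (0.612 to 1.87). All 6 intervals include equality and overlap each other. None of the 6 loci reached a 2-fold ratio with at least 20 reads and an interval excluding equality, a rule that 0.0913% of the 7668 protein-coding loci passed on the higher and 0.352% on the lower side (0.443% on either). The median log2 MeDIP ratio was -0.12 over the 6 loci and -0.06 over all loci with at least 20 reads.

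The input ratios were set beside the MeDIP ratios. The input ratio of Cd8a was 0.806 (0.541 to 1.19) and that of Cd4 0.891 (0.714 to 1.11). In Runx3 the input ratio was 1.05 (0.924 to 1.19), above its MeDIP ratio. Lag3 had 1.21 (0.881 to 1.67), Zbtb7b 0.962 (0.536 to 1.71) and Cd8b1 0.956 (0.535 to 1.69). Input and MeDIP thus lay on the same side of 1 in Cd8a, Cd4, Zbtb7b and Lag3, and on opposite sides in Runx3 and Cd8b1. The part of the inputs in the MeDIP ratios was not tested.

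**Figure D3:**
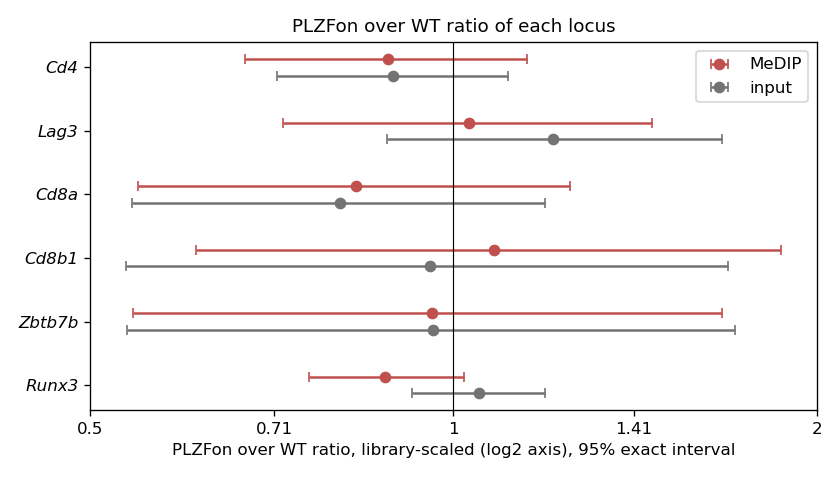
The x axis is the PLZFon over WT ratio on a log2 axis, with MeDIP in red and input in grey for each locus and bars for the 95% exact interval. All 12 bars cross 1, and MeDIP and input lie close together in Cd4, Cd8a and Zbtb7b.

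Along Runx3 the MeDIP ratio was given for the stretches before and after the downstream start. Before that start it was 0.836 (0.711 to 0.982), from 245 PLZFon and 417 WT reads, with an input ratio of 1.02 (0.88 to 1.18). This interval no longer excluded equality with TMM factors (0.867, 0.738 to 1.02), in windows with at least 20 MeDIP reads (0.912, 0.758 to 1.1), or with a read counted in 6 windows (0.685 to 1.02). From that start on it was 1.11 (0.774 to 1.57), from 59.2 PLZFon and 76.2 WT reads, with an input ratio of 1.15 (0.887 to 1.5). These intervals overlap, so a difference between the stretches was not shown, and the stretches were chosen after the values were seen. An interval excluding equality on the lower side, at any size, was found in 5.01% of all protein-coding loci that reached 20 reads. The stretch had 662 MeDIP reads, and this share was not computed for loci of like read number. In bins of 5 kb, 8 of the 11 Runx3 bins with at least 10 reads were below 1 and 3 above, from 0.497 to 1.23, and no interval excluded equality. In the flanks 12 of 19 bins were below 1.

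All 5 bins of Cd4 lay between 0.678 and 1.01, both bins of Lag3 between 0.824 and 1.08, and both bins of Cd8a between 0.633 and 0.822. Cd8b1 and Zbtb7b had 1 bin each with at least 10 reads, at 1.1 and 0.875. No interval of a bin over the 6 genes excluded equality, where 2.29% of such bins did over the whole table.

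**Figure D4:**
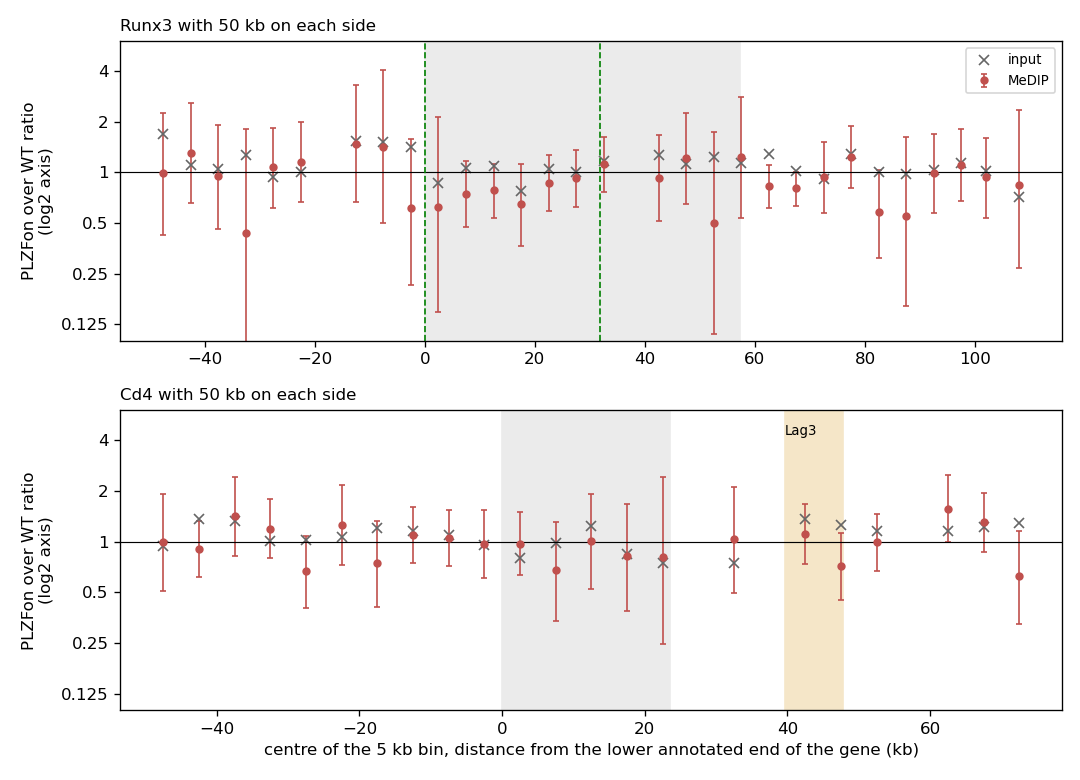
The y axis is the PLZFon over WT ratio on a log2 axis in bins of 5 kb with at least 10 MeDIP reads, with red points for MeDIP, bars for the 95% exact interval and grey crosses for the input. The x axis is the distance of the bin centre from the lower annotated end (grey: Runx3 or Cd4, tan: Lag3, dashed green: annotated starts of Runx3). Bars over the genes all cross 1, with 8 of 11 Runx3 points below it.

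Single windows were compared by the same rule of at least 20 reads, a ratio of at least 2 and an interval excluding equality. Of the 111 member windows with at least 20 reads, 0 were higher and 1 was lower in PLZFon, where the rule called 1.13% of such windows higher, 2.17% lower and 3.3% either way over the whole table. The lower window lies in Runx3 (chr4:135126201-135126300) and held 6 reads in PLZFon and 22 in WT (ratio 0.388, 0.129 to 0.988), with 10 reads in each input. It reached the minimum of 20 by its WT reads alone, so a low ratio was favoured. With scaling by TMM factors this window was no longer called, and a window of Cd8b1 (chr6:71324901-71325000) with 13 PLZFon and 7 WT reads was called higher, at 2.74 (1.02 to 8.12). The same rule on the inputs called 3 member windows higher and 1 lower of 199, where it called 3.36% of windows in either direction over the whole table.

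With the minimum lowered to 10 reads, a choice made after the values were seen, 4 member windows were higher and 3 lower, against 1.39% and 1.57% of all listed windows (2.96% either way). The 4 higher windows are adjacent and share reads, so they are 1 observation. They lie in Cd4, from 124868401 to 124868800, with 10, 9, 9 and 12 PLZFon reads and 3, 3, 1 and 3 WT reads. Their input reads were near equal, between 10 and 17 in PLZFon and between 11 and 18 in WT. The ratio over these windows was 5.7 (1.35 to 39.5), from 10 PLZFon and 2.5 WT reads. They were picked for their high ratios, and their WT reads alone would not have reached the listing minimum of 10. A high ratio was thus built in, and this interval is not evidence of a difference. The 5 windows beside these 4, from 124867901 to 124868400, include the strongest window of Cd4 and had a ratio of 0.689 (0.309 to 1.45). Their inputs gave 0.627 (0.29 to 1.29). Without the 4 windows the ratio over Cd4 was 0.799 (0.602 to 1.06).

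Besides the window named above, the lower windows at this minimum lie in Runx3, within 20 kb of its lower end. All of the lower windows were picked for their low ratios. In each the WT reads alone reached the listing minimum of 10, and the PLZFon reads alone did not. Their intervals are thus not evidence of a difference. The window chr4:135131101-135131200 held 2 reads in PLZFon and 15 in WT (ratio 0.19, 0.0211 to 0.816), with an input ratio of 0.548. The window chr4:135140501-135140600 held 0 PLZFon and 10 WT reads, so it was listed through its WT reads alone. Its ratio had an interval from 0 to 0.635, with 14 and 13 input reads. By the authors' deposited table the latter had a p-value of 0.00391, the smallest among the member windows, with an adjusted p of 1. By the authors' deposited table, p-values were below 0.05 in 8 of the 266 member windows (3.01%) and in 3.31% of all listed windows, and 0 member windows had an adjusted p below 0.05.

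The strongest window of each gene, by MeDIP reads, is given next. In Runx3 the strongest window (chr4:135130701-135130800) had 24 reads in PLZFon and 43 in WT (ratio 0.795, 0.461 to 1.34). In Cd4 it had 15 and 25 (chr6:124867901-124868000, 0.854, 0.419 to 1.68) and in Cd8a 12 and 19 (chr6:71378501-71378600, 0.899, 0.398 to 1.95). In Lag3 it had 11 and 24 (chr6:124904801-124904900, 0.653, 0.289 to 1.38), in Cd8b1 11 and 22 (chr6:71327101-71327200, 0.712, 0.312 to 1.53) and in Zbtb7b 10 and 23 (chr3:89381701-89381800, 0.619, 0.263 to 1.35). All 6 ratios were below 1 and all 6 intervals include equality. The windows were picked by the reads of both libraries together, and the deeper WT library gave more of them. Such picking can favour ratios below 1, and the share of strongest windows below 1 over other loci was not computed. Over the whole locus Lag3 and Cd8b1 stood at 1.03 and 1.08.

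Adjacent listed windows of the 6 genes form 75 blocks, 39 of them in Runx3 and 18 in Cd4. By the strongest window of each block, 28 blocks were above and 47 below equality. In 0 of them did the interval exclude equality, where 3.13% of all blocks in the table did. The share of all blocks below equality was not computed, so the 47 are not read as a trait of these genes. Strongest windows were picked by the reads of both MeDIP libraries together. The deeper WT library gave more of these reads, so the picking can favour values below 1. Of the 266 windows, 169 had a ratio below 1 (63.5%), against 53.8% of all listed windows. Neighbouring windows share reads, so these are not independent. The share ranged from 33.3% in Zbtb7b to 80% in Cd8a.

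The member windows were also grouped by CpG factor. In WT, MeDIP over input was 3.26 in the 74 member windows with a CpG factor of 1 and 4.08 in the 20 with a factor of 5 or more, against 3.68 and 6.59 over all listed windows. In PLZFon the values were 3.19 and 4.08, against 3.57 and 6.03. The top class is not alike in the 2 sets, since factors reach 7 in the members and 20 over the whole table. At a factor of 4 the values were 4.28 in WT and 3.8 in PLZFon, against 5.48 and 5.14 over all listed windows. The rise from a factor of 1 to 4 was thus smaller in value in the members. No interval was computed for it. Of the 266 member windows, 138 lie in Runx3 and 55 in Cd4, so the pooled values are mostly those of these genes. The single genes were not grouped by CpG factor. Of the PLZFon over WT ratios of the classes, the lowest was 0.832 (0.639 to 1.08), for a CpG factor of 3. The highest was 0.943 (0.756 to 1.17), for a CpG factor of 1. The authors' relative methylation score had medians in WT from 0.57 (Cd8a) to 0.665 (Lag3) and in PLZFon from 0.5 (Cd8a) to 0.62 (Lag3). Its median was lower in PLZFon in all 6 genes, by the least in Cd8b1 (0.575 against 0.59). In Lag3 and Cd8b1 the median was lower although their MeDIP ratios, scaled to the libraries, were 1.03 and 1.08. The window chr6:124871101-124871200 had 5 raw reads and a score of 0.53 in each MeDIP library, at a scaled ratio of 1.42. A lower score thus did not by itself mean a lower scaled ratio. The WT MeDIP library was also the deeper one, and the part of depth in this score was not tested.

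Other genes of the coreceptor pathway were taken from a list of 26 regulators, kinases and ligands, of which 15 lay in the range of the table and all 15 had at least 20 reads. None passed the 2-fold rule, and their median log2 ratio was 0.00 against -0.06 over all loci. Lck, the kinase that the coreceptors carry, stood at 1.02 (0.741 to 1.39), Zap70, the next kinase in the chain, at 0.943 (0.679 to 1.3) and Cd1d1, which presents lipids to NKT cells, at 0.997 (0.634 to 1.55). The regulators Tox and Bach2 both stood at 1, and Gata3, which acts before Zbtb7b, at 1.36 (0.78 to 2.38). In 2 of the 15 the interval excluded equality, where 6.25% of all loci had such an interval. These were Ikzf2 at 1.2 (1.02 to 1.42) and Lef1 at 0.571 (0.501 to 0.65), an HMG box factor that favours the CD4 lineage in thymus. Lef1 had 326 PLZFon and 814 WT MeDIP reads with an input ratio of 0.969. The 6.25% covers all loci from 20 reads up, and was not computed at read numbers like those of Ikzf2 (580) and Lef1 (1140).

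Markers of other cells the sort could hold were measured in part, among them 4 of 6 for double-positive thymocytes and 3 of 5 for myeloid cells. Of the thymocyte markers not described above, Rag1 stood at 1 (0.766 to 1.3) and Rag2 at 1.55 (0.701 to 3.46). The B cell markers Cd79a and Cr2 stood at 0.778 (0.41 to 1.43) and 0.679 (0.289 to 1.49), and the myeloid markers Fcgr3, Itgam and Itgax from 0.89 to 1.15. None of the intervals of these named markers excluded equality.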

How the data were processed

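Raw read counts of 4 libraries in 100 bp windows were deposited, with RPKM values that the authors made from those counts. It also holds a relative methylation score by the authors and a CpG factor, a score of CpG content. The authors' comparison of the MeDIP libraries is deposited as log2 fold changes and p-values. BWA, edgeR and mm10 are named in the submitters' processing notes without versions, and sorted, unique alignments per the file headers. Of the columns, 6 were not used.

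Library totals were recovered from counts and RPKM. Differences between input windows (squared, scaled by the counts) grew up to 4 windows apart (PLZFon 1.16) and little beyond (1.22 at 8), so a read was taken as counted in 4 windows. In MeDIP it still rose (PLZFon 4.28 to 5.03), so this is less certain there. Sums were divided by 4, and only listed windows were summed. Ratios and exact 95% intervals were computed with scipy 1.17.1 in Python 3.11.15, and TMM factors with edgeR 4.0.16 (R 4.3.3). Intervals cover counting error only, since PCR duplicates and differences between mice are not seen. The calculation was tested on simulated counts at the depths of these loci.

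The members and lists were chosen with earlier results of these data known. Named were all 6 members, part of the measured pathway genes and, per member gene, its strongest window and each window past the rule of size. The measured pathway genes Cd247, Ptprc, Notch1, B2m, Foxo1, Hdac1 and Lat were not named, and their intervals all include equality. Positions and starts come from RefSeq (GRCm38.p6, the primary assembly of mm10): all 26 pathway symbols matched, and 3 of the 6 members had start sequences. Alternatives were other scalings, flanks, read minimums and ratios. A marker gene of the B cell list is not reported here.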

Additional observations from a re-analysis of the deposited data

How the results depend on the processing

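The MeDIP ratios of the 6 loci stayed within their intervals under all 49 alternatives, and no interval excluded equality. The point values crossed equality in 3 of them: Lag3 fell to 0.938 and Zbtb7b rose to 1.01 with flanks of 5000 bp, and Cd8b1 fell to 0.892 with windows of at least 20 reads. The lowest ratio was that of Zbtb7b with windows of at least 20 reads (0.631, 0.25 to 1.46, from 4 windows). Among the alternatives run, 9 took a value outside the 95% interval of the reported value or a count past 1.5 times, and 4 ended an interval's exclusion of equality. These 4, chosen after seeing the data, concern Runx3 before its downstream start, at 0.867 with TMM factors or the sum over listed windows, 0.912 in windows of at least 20 reads and 0.836 (0.685 to 1.02) with a read counted in 6 windows. With windows of at least 20 reads, MeDIP over input rose to 4.36 (WT) and 5.01 (PLZFon) in Cd4 and to 5.4 and 4.75 in Runx3, while all listed windows with that minimum gave 6.39 (WT) and 5.96 (PLZFon). The intervals of Cd4 (2.96 to 6.43 and 2.95 to 8.55) and of Runx3 in WT (4.57 to 6.4) include these values, and that of Runx3 in PLZFon (3.92 to 5.75) lies below. In Zbtb7b MeDIP over input in WT was 6.88 with that minimum, inside the interval of its reported value (2.76 to 7.86). The count of member windows past the rule, 0 higher and 1 lower, became 0 lower at 30 reads, 1 higher and 0 lower with TMM factors, and 4 higher and 3 lower at 10 reads (chosen after seeing the data). No paired analysis was possible because each group has 1 library. At these depths the interval of a locus with few reads was wide, such as that of Cd8b1 (0.612 to 1.87). The smallest change that such a locus could show was not computed.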

Other observations

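Each locus was matched with the protein-coding locus most like it, among 5297 loci with at least 100 reads, by the distance over the log2 MeDIP over input of both genotypes and the log2 MeDIP and input ratios. All 4 values come from the same 4 libraries. Counting error does not enter the distances, so a small distance does not mean that a match is well determined. Cd8b1 and Zbtb7b themselves had 57.5 and 57.8 MeDIP reads, below the minimum asked of the matches. The most alike were Grip2 for Cd4 (distance 0.05), Gna12 for Lag3 (0.03), Trp53rkb for Cd8a (0.04), Dcp1b for Cd8b1 (0.04), Lcorl for Zbtb7b (0.02) and Arhgef11 for Runx3 (0.07).

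In the 50 kb on each side of the 6 genes, 1 bin of 5 kb had an interval that excluded equality. It lies below Zbtb7b (chr3:89347644-89352643), where the genes Adam15, Dcst1 and Dcst2 meet, at 0.532 for MeDIP (0.276 to 0.973) and 1.1 for the inputs (0.691 to 1.74). Such an interval was found in 2.29% of these bins over the whole table.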
